A study of Mus musculus with 45 samples.

Results

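The aryl hydrocarbon receptor (AHR) axis was followed through 6 genes: the CYP1 targets Cyp1a1 and Cyp1b1, the receptor Ahr, its partner Arnt, and Ahrr and Tiparp, which restrain the receptor. Members were all probe sets of the array annotated with 1 of these symbols alone, which gave 15 probe sets of 45037 and 6 genes of 18193. Cyp1a1 was selected on measured values, as the gene whose fall on Western diet stood out in the insulin-resistant mice, so its values there are a description without a test. The remaining 5 genes were added for their roles, with earlier results of these data known.

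Adipocyte RNA from parametrial and periovarian fat of 45 female C57BL/6 mice was measured, with 1 array per mouse. All mice lacked ApoE (ApoE-/-). The 26 D mice (IR+/- IRS1+/- ApoE-/-) were in addition heterozygous for the insulin receptor and IRS1, and the 19 E mice lacked ApoE alone. Diets began at 8 weeks of age. DC8 (D, chow, n = 7), DW8 (D, Western diet, n = 5) and EW8 (E, Western diet, n = 6) were killed after 8 weeks, at 16 weeks of age. DC16 (D, chow, n = 5), DW16 (D, Western diet, n = 9), EC16 (E, chow, n = 5) and EW16 (E, Western diet, n = 8) were killed after 16 weeks, at 24 weeks of age. The series held no arrays of E mice on chow for 8 weeks. The mice are whole-body mutants and were killed in the random-fed state. Levels are given on the log2 RMA scale as mean ± SD over mice, and differences between groups on the same scale with their SE. RMA gives no call of presence.

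AHR is a transcription factor that waits in the cytosol with HSP90 and other chaperones until it binds a ligand, such as a dioxin, a plant indole or a product of tryptophan breakdown. It then enters the nucleus, pairs with ARNT and binds xenobiotic response elements, whose core is GCGTG. Cyp1a1, a monooxygenase of foreign and endogenous aromatic compounds, is its most inducible target. Ahrr, the AHR repressor, and Tiparp, an ADP-ribosyltransferase that marks AHR for breakdown, are targets that feed back on it. Lipophilic AHR ligands gather in fat, and Cyp1b1 is typical of mesenchymal cells.

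The stretch just upstream of each target gene is shown because it carries the core through which AHR and ARNT act. RefSeq promoters of build GRCm38.p6 held an entry for 5 of the 6 genes, and the 250 bases before the gene start are printed for the 4 target genes, on the gene's own strand, with each GCGTG, or CACGC where the core lies on the other strand, in capitals. The Cyp1a1 window is chr9:57697363-57697612 (plus strand), that of Cyp1b1 chr17:79715062-79715311 (minus strand), that of Ahrr chr13:74292332-74292581 (minus strand) and that of Tiparp chr3:65528197-65528446 (plus strand).
Cyp1a1: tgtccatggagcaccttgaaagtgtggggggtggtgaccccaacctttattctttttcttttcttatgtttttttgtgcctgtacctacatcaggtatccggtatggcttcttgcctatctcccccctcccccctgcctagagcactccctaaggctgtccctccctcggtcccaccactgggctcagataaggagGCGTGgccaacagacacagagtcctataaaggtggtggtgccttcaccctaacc
Cyp1b1: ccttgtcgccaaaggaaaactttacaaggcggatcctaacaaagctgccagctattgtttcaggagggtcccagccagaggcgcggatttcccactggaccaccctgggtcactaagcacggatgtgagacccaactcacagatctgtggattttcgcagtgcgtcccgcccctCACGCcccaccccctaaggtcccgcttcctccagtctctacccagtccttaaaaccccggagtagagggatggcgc
Ahrr: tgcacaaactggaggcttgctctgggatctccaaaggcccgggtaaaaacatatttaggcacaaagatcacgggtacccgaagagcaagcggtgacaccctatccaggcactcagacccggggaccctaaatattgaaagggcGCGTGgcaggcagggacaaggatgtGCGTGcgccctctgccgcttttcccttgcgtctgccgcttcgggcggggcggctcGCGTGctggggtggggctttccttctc
Tiparp: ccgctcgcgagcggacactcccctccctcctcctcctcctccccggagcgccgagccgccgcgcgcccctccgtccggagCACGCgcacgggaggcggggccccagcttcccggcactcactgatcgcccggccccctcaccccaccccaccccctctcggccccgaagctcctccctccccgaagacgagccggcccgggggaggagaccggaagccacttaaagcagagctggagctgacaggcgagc
Cyp1a1 held 1 core 54 bases before its start, Cyp1b1 held 1 at 76 bases, Tiparp held 1 at 170 bases, and Ahrr held 3, at 107, 82 and 27 bases. The Arnt window, not printed, held 1 at 29 bases. Of 32851 promoter windows of the same length, 28.2% held the core on either strand and 2.77% held 3 or more. No other motif was searched. A match is a stretch of letters and not a bound site, and the best known enhancer of Cyp1a1 lies further upstream than this window.

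Quality of the arrays touches the results and is given first. In 35 of the 45 arrays the 95th percentile of all log2 values lay between 10.95 and 11.14, and in the other 10, those of DW16 mice 1 to 7 and EW16 mice 1 to 3, it lay between 10.14 and 10.85. These 10 are called narrow-range arrays, a boundary drawn with the values known. In D mice a narrow range and 16 weeks of Western diet cannot be told apart beyond DW16 mice 8 and 9. The mean of the 6 measured adipocyte markers of 8 was 12.15 to 12.96 in the 7 groups.

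Cyp1a1 was lower on Western diet in both genotypes. Its group means were 10.62 to 10.89 on chow and 7.39 to 8.60 on Western diet. In EC16 mice the 5 levels were 10.36, 10.92, 10.64, 10.47 and 10.73 (10.62 ± 0.22, n = 5). In EW16 mice they ran from 6.08 over a median of 7.23 to 8.92 (7.39 ± 0.94, n = 8). All 8 EW16 mice lay below all 5 EC16 mice. The difference was -3.23 (SE 0.391, 95% interval -4.07 to -2.39), or 9.41-fold lower, and it passed the test (limma, adjusted p = 0.00168). The contrasts that chose Cyp1a1 held no E mice, though earlier results of these data were known when the members were chosen. Cyp1a1 was the 1 member probe set of 15 called in this comparison, where 2.66% of all probe sets were called, 122 higher and 1078 lower.

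The fall in E mice was as large without the narrow-range arrays, at -3.47 (adjusted p = 0.000534), and ranged from -3.45 to -3.05 with each mouse left out in turn, called each time. Without EW16 mice 5 to 8, which stand apart in Arnt, the difference was -2.70 and the call was lost (adjusted p = 0.0158).

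In D mice the values of Cyp1a1 were those it was chosen by. DW8 mice had levels of 9.25, 7.09, 8.60, 8.83 and 7.88 (8.33 ± 0.85, n = 5). DC8 mice ran from 10.04 over a median of 10.80 to 11.85 (10.88 ± 0.58, n = 7). The 2 groups did not overlap, and the difference was -2.55 (SE 0.346), or 5.84-fold lower.

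After 16 weeks DC16 mice had levels of 11.18, 11.49, 10.34, 10.86 and 10.58 (10.89 ± 0.46, n = 5), and DW16 mice ran from 6.66 over a median of 6.97 to 10.36 (7.77 ± 1.31, n = 9). The difference was -3.12 (SE 0.544), with 8 of 9 DW16 mice below all DC16 mice. The exception was DW16 mouse 8, at 10.36. That mouse and mouse 9, at 8.40, have no narrow-range array, and the difference of these 2 mice from DC16 was -1.51. Of the 15 member probe sets 1 was called in DW16 against DC16, where 3.43% of all probe sets were, and 2 in DW8 against DC8, where 1.08% were (Cyp1a1 and Tiparp 1452160_at, 0 with 1 spread over all groups or with the replicate block). Nothing is read from these 2 counts, since both contrasts chose Cyp1a1.

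EW8 mice had the widest spread of Cyp1a1, from 6.73 over a median of 8.70 to 10.60 (8.60 ± 1.55, n = 6). EW8 mouse 1, at 10.60, lay within the range of the chow groups. From the highest mean to the lowest the order of the groups was DC16, DC8, EC16, EW8, DW8, DW16 and EW16. The ranges of all 6 neighbouring pairs in that order overlapped, also EC16 and EW8, whose means lay 2.03 apart.

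**Figure D1:**
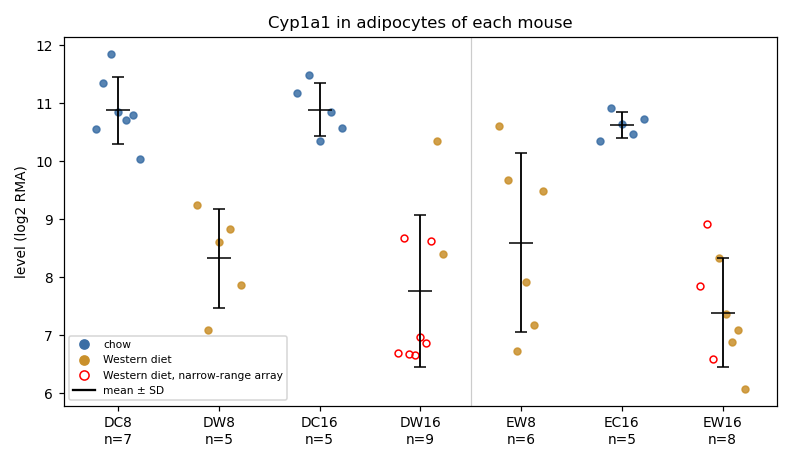
Cyp1a1 level (log2 RMA, vertical axis) of each mouse in the 7 groups, with chow in blue, Western diet in ochre, narrow-range arrays as open red circles, and bars for the mean ± SD. All EW16 mice lie below all EC16 mice, and DW16 mouse 8, at 10.36, and EW8 mouse 1, at 10.60, reach the chow levels.

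Over all arrays, time on diet and genotype gave smaller differences in Cyp1a1. EW16 lay below EW8 by a difference of -1.21 (SE 0.599, 95% interval -2.49 to 0.07), which did not pass the test (limma, adjusted p = 0.186). DW16 less DW8 was -0.56 (SE 0.582) and DC16 less DC8 was 0.01 (SE 0.267). On Western diet D less E was -0.27 (SE 0.663) at 8 weeks and 0.38 (SE 0.514) at 16 weeks, and on chow it was 0.26 (SE 0.196) at 16 weeks. These comparisons share mice with those that chose the gene and have no test here. The signed diet difference at 16 weeks in D mice (-3.12) less that in E mice (-3.23) was 0.12 (SE 0.715). Over all arrays the fall was thus slightly smaller in D mice, by less than the SE. This near equality rests on the narrow-range arrays. Without them the diet difference was -1.51 (SE 0.485) in D mice, with few DW16 mice left, and -3.47 (SE 0.317) in E mice. The mean level was then 9.38 in DW16 and 7.15 in EW16.

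Some markers of mesothelial cells, which line the fat pad, fell in E mice at 16 weeks. The 7 markers were all below 0 in EW16 less EC16, with a median of -1.20 beside 0.06 over all probe sets. Of these, Upk3b (-1.74), Wt1 (-1.43) and Krt19 (-1.20) were called. The mean of the 7 markers was 7.75 in EC16 (7.32 to 8.39 over mice) and 6.66 in EW16 (6.32 to 7.42). In DW16 it was 6.67 (5.96 to 8.14) and in DC16 7.39 (6.51 to 7.88), with 1 marker called lower, Lrrn4. That order rests on the narrow-range arrays, since DW16 mice 8 and 9 had 7.36 and 8.14. In DW8 it was 7.28 and in DC8 7.59, with 0 called. Over the 45 mice Cyp1a1 and this mean had a Spearman rho of 0.518, and after each mouse was set against its group's mean a rho of 0.0879.

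All 8 endothelial markers were below 0 in EW16 less EC16, with 0 called and a median of -0.37, and in DW16 less DC16 1 was called lower with a median of -0.80. Macrophage markers had medians of -0.21 and -0.44 in the same comparisons, with 0 and 1 called lower. Stromal markers had -0.41 and -0.17 with 0 called in both. Adipocyte markers had -0.33 and -0.50 with 0 called in both. The 6 lymphocyte and 6 ovarian steroidogenic markers measured had medians between -0.10 and 0.12 in both, and 2 lymphocyte markers were called in DW16 against DC16, 1 in each direction. In such bulk RNA fewer cells of a type and less RNA per cell cannot be told apart. All narrow-range arrays are of DW16 and EW16 mice, and their part in these medians was not tested. The part of these markers in the fall of Cyp1a1 was not tested either.

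**Figure D2:**
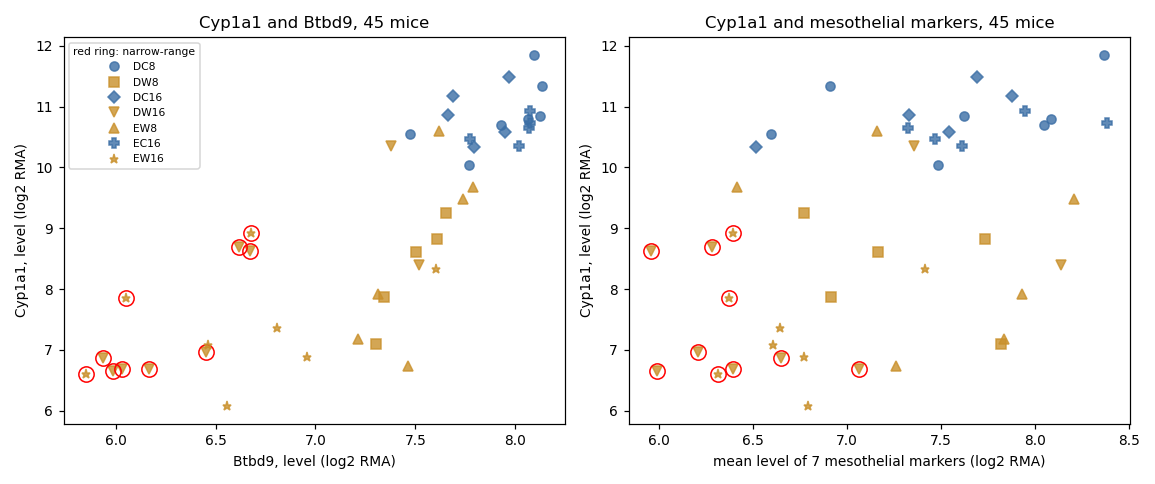
Cyp1a1 level (vertical axes, log2 RMA) against the level of Btbd9, its nearest probe set (left), and against the mean of 7 mesothelial markers (right), both log2 RMA, with 1 symbol per mouse, chow in blue, Western diet in ochre and red rings for narrow-range arrays. Over the 45 mice rho was 0.881 on the left and 0.518 on the right.

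Tiparp was called between 16 and 8 weeks on Western diet in D mice. Its 3 probe sets had their highest group means in DW8 mice and their lowest in DW16 mice. On the probe set with the highest mean, 1426721_s_at, DW8 mice had levels of 13.37, 13.30, 13.26, 13.26 and 13.25 (13.29 ± 0.05). DC8 mice ran from 12.88 over 13.01 to 13.18 (13.00 ± 0.10). All 5 DW8 mice lay above all DC8 mice here, and the difference was 0.28 (SE 0.0659). The same held on 1452160_at (0.71, SE 0.1003), and on 1452161_at 4 of 5 DW8 mice lay above (0.81, SE 0.165). This contrast chose Cyp1a1, and the members were picked with earlier results of these data known, so no p is given.

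After 16 weeks Tiparp was lower in DW16 than in DW8 mice. On 1426721_s_at DW16 mice ran from 11.83 over a median of 12.47 to 13.16 (12.39 ± 0.45, n = 9), all below the 5 DW8 mice. The difference was -0.90 (SE 0.189) on this probe set (limma, adjusted p = 0.00718), -1.43 (SE 0.294, adjusted p = 0.00647) on 1452160_at and -1.28 (SE 0.277, adjusted p = 0.00797) on 1452161_at. These were the 3 member probe sets called in DW16 against DW8, where 5.41% of all were called. The DW8 mice are those already seen to lie high against DC8, so these p values are not independent of that contrast. The narrow-range arrays bear on them: with DW16 mice 8 and 9 alone the differences were -0.47, -0.47 and -0.21, and none was called (adjusted p of 0.299, 0.294 and 0.668). Leaving out any of the 5 DW8 mice, or DW16 mouse 2, 3, 4, 6 or 7, ended all 3 calls, with adjusted p of 0.0104 to 0.0221. Without DW16 mouse 1 or 5, 1452161_at alone lost its call. After a further quantile normalization the differences were -0.48, -0.996 and -0.84, the last of them not called (adjusted p = 0.0101).

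In the same comparison 2 of the 6 measured adipocyte markers were called lower. Their mean was 12.96 in DW8 (12.85 to 13.07 over mice) and 12.15 in DW16 (11.47 to 12.86), with a median difference of -0.59 over the 6. Endothelial markers had a median of -0.74 with 1 of 8 called lower. The Tiparp probe sets lay at percentiles 99.3, 97.4 and 95.4 of all probe sets by mean level, and a narrow-range array is marked by a lower 95th percentile. The part of these markers and of the narrow range in the fall of Tiparp was not tested.

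In EW16 mice Tiparp split with the arrays on 1426721_s_at. There the 3 narrow-range mice had 12.86, 12.39 and 11.97 and the other 5 had 13.31 to 13.55, while EC16 mice had 13.29, 13.03, 13.48, 13.23 and 13.15. On 1452160_at and 1452161_at 7 of 8 EW16 mice lay below all EC16 mice and 1 above. Without the narrow-range arrays EW16 still averaged 12.08 against 12.22 in EC16 on 1452160_at, and 10.99 against 11.57 on 1452161_at. The differences of EW16 from EC16 were -0.18 (SE 0.253), -0.61 (SE 0.300) and -0.86 (SE 0.253) on the 3 probe sets, and none passed the test (limma, adjusted p of 0.660, 0.202 and 0.0482). In DW16 less DC16 they were -0.68 (SE 0.191), -0.78 (SE 0.318) and -0.81 (SE 0.297), with none called. DC16 mice had 12.97, 13.14, 13.14, 12.97 and 13.16 on 1426721_s_at, and EW8 mice ran from 12.79 over 13.17 to 13.35.

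Western less chow was above 0 at 8 weeks and below 0 at 16 weeks on all 3 probe sets in D mice, and the difference between these times was not tested. The direction at 16 weeks turned without the narrow-range arrays on 2 of the 3. DW16 mice 8 and 9 then averaged 11.97 against 11.80 in DC16 on 1452160_at and 11.45 against 11.18 on 1452161_at, and 12.82 against 13.07 on 1426721_s_at. In E mice the direction turned on 1426721_s_at, with 13.45 in the other 5 EW16 mice against 13.24 in EC16. In order of the mean of 1426721_s_at the groups were DW8, EC16, EW8, DC16, EW16, DC8 and DW16, and all neighbours in that order overlapped.

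**Figure D3:**
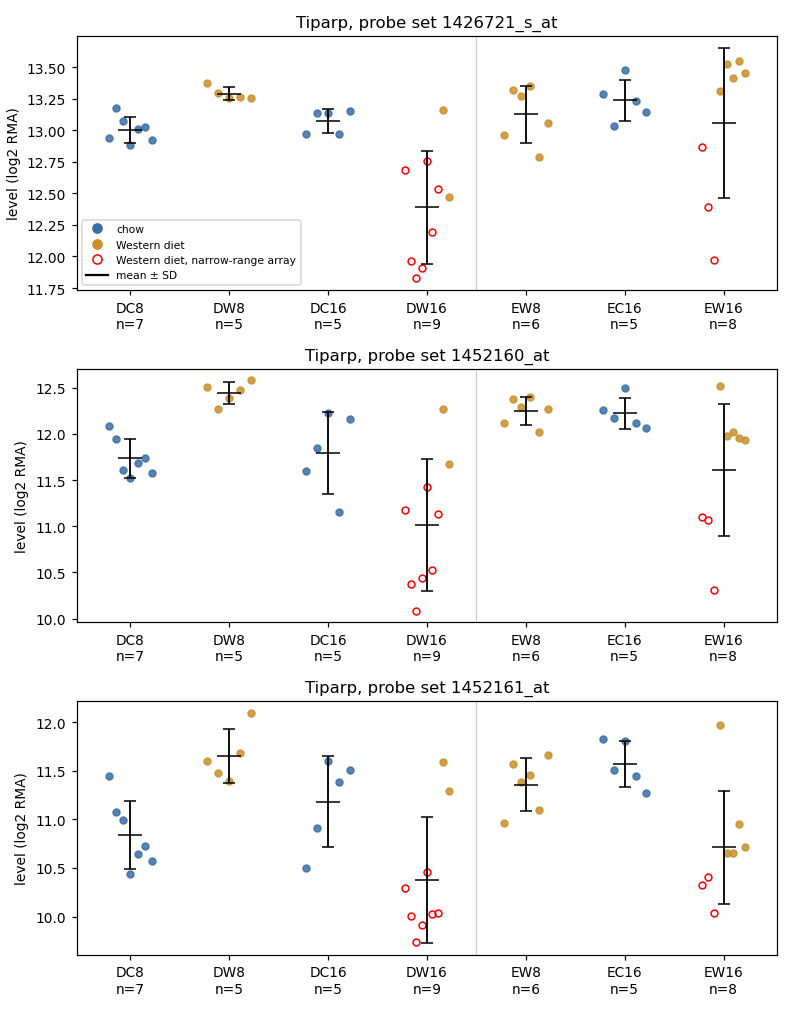
Level of Tiparp (log2 RMA, vertical axes) of each mouse in the 7 groups on its 3 probe sets, with chow in blue, Western diet in ochre, narrow-range arrays as open red circles, and bars for the mean ± SD. DW8 mice lie high on all 3, and the narrow-range mice of DW16 and EW16 lie low.

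No difference of the receptor itself was called. Ahr, on 1422631_at, had group means of 8.30 to 8.85. EC16 mice had 8.80, 8.58, 8.38, 8.61 and 8.95 (8.66 ± 0.22), and EW16 mice ran from 8.32 over 8.91 to 9.53 (8.85 ± 0.47). The difference of 0.19 (SE 0.210, 95% interval -0.26 to 0.64) did not pass the test (limma, adjusted p = 0.566). DC16 mice had 8.55, 8.50, 8.24, 8.03 and 8.20 (8.30 ± 0.22), and DW16 mice ran from 7.87 over 8.43 to 9.31 (8.40 ± 0.43), a difference of 0.10 (SE 0.193). DW8 mice had 7.92, 8.30, 8.45, 8.50 and 8.50 (8.34 ± 0.25), DC8 mice 8.27 to 8.60 with a median of 8.45, and EW8 mice 8.15 to 8.85 with a median of 8.34. All groups compared overlapped. D mice lay below E mice by 0.36 on chow (SE 0.129) and by 0.45 on Western diet (SE 0.205) at 16 weeks, neither called (limma, adjusted p of 0.774 and 0.328). On the second probe set, 1450695_at, group means were 5.21 to 5.51 and none of the differences was called.

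Arnt, the nuclear partner, has 5 probe sets. The leading 1437042_at had group means of 8.55 to 9.11. EC16 mice had 9.27, 9.42, 8.89, 8.97 and 9.01 (9.11 ± 0.22), and EW16 mice ran from 8.25 over 9.04 to 9.27 (8.89 ± 0.39). The difference of -0.22 (SE 0.182, 95% interval -0.61 to 0.17) was not called (limma, adjusted p = 0.440). In D mice the same diet difference was -0.17 (SE 0.156) at 16 weeks and 0.05 (SE 0.0993) at 8 weeks. Both differences at 16 weeks rest on the narrow-range arrays. Without them this probe set averaged 8.87 in DW16 against 8.72 in DC16, and 9.10 in EW16 against 9.11 in EC16. On chow at 16 weeks D mice lay 0.39 below E mice (SE 0.139), which did not pass (adjusted p = 0.774).

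The other Arnt probe sets disagreed with each other by mouse. On 1419996_s_at EW16 mice 5 to 8 had 8.54, 8.71, 8.46 and 8.49, above every other mouse of the series, and EW16 mice 1 to 4 had 7.42 to 7.77, below all 5 EC16 mice, at 7.80 to 8.10. On 1449696_at the 7 narrow-range DW16 mice had 6.73 to 7.28 and the other 2 had 6.02 and 5.94. There the difference of DW16 from DW8 was 0.63 (SE 0.199), and it was -0.38 (SE 0.146) on 1421721_a_at, neither called (limma, adjusted p of 0.0358 and 0.0716). The remaining one, 1425064_at, ranged from 3.62 to 4.58 over all mice.

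Cyp1b1, the CYP1 enzyme typical of mesenchymal cells, had no called difference. On 1416612_at EC16 mice had 8.50, 8.46, 8.29, 8.25 and 9.29 (8.56 ± 0.42), and EW16 mice ran from 7.40 over 8.81 to 9.39 (8.59 ± 0.72). The groups overlapped, and the difference was 0.03 (SE 0.325, 95% interval -0.66 to 0.73; limma, adjusted p = 0.952). In D mice it was -0.25 at both times, with SE 0.173 at 8 weeks and 0.156 at 16 weeks. Group means were highest in EW16 (8.59) and lowest in DW16 (8.13), and D less E on Western diet at 16 weeks was not called. The 2 other probe sets, 1416613_at and 1432081_at, had group means of 5.08 to 5.79 and 4.67 to 4.79 and no called difference.

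Ahrr, the repressor, was read by 1 probe set at levels of 3.57 to 4.38 in all mice. Its mean of 3.93 lay at percentile 16.9 of all probe sets, so a lack of change cannot be read from it. EC16 mice had 3.57, 3.88, 3.75, 3.83 and 4.03 and EW16 mice ran from 3.74 over 4.08 to 4.38, with a difference of 0.26 (SE 0.122; limma, adjusted p = 0.176). In DW16 less DC16 it was 0.17 (SE 0.0791) and in DW8 less DC8 0.03 (SE 0.0623).

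**Figure D4:**
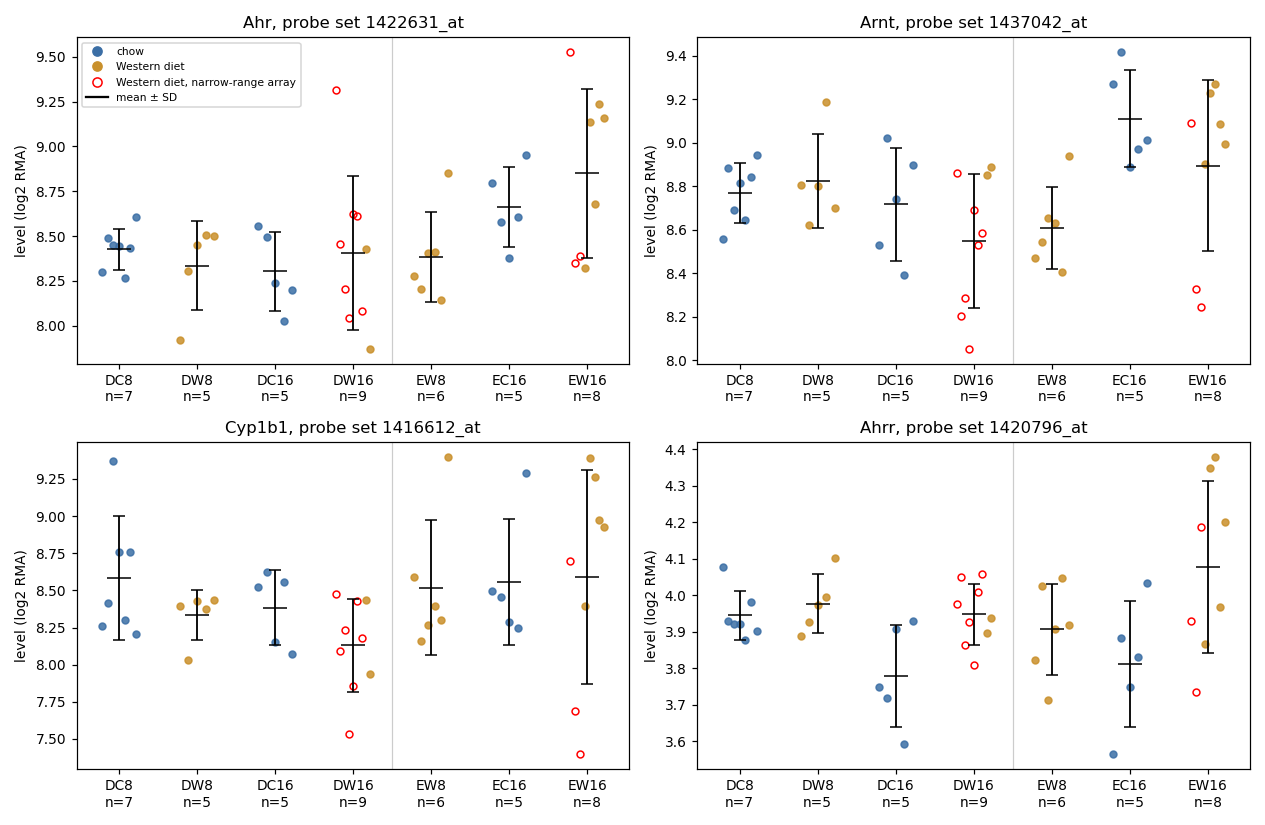
Level (log2 RMA, vertical axes) of Ahr, Arnt, Cyp1b1 and Ahrr on their leading probe sets in each mouse of the 7 groups, with chow in blue, Western diet in ochre, narrow-range arrays as open red circles, and bars for the mean ± SD. Chow and Western groups overlap in each panel at 8 and at 16 weeks.

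**Figure D5:**
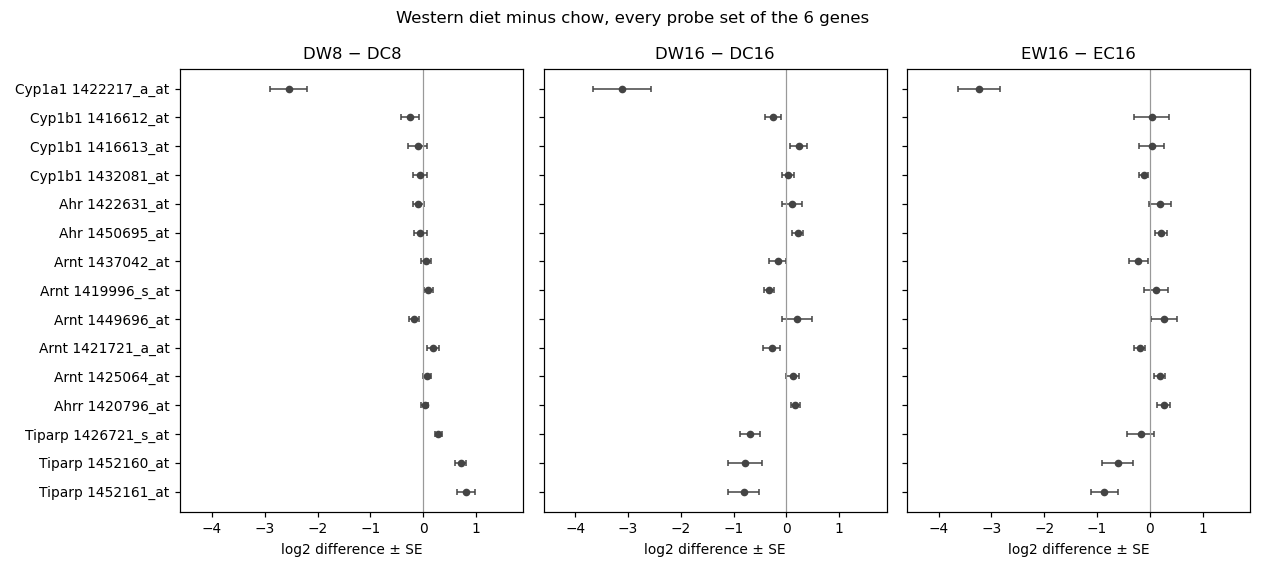
Western diet less chow (log2 difference ± SE, horizontal axes) for all 15 probe sets of the 6 genes at 8 and 16 weeks in D mice and at 16 weeks in E mice. Cyp1a1 stands at -2.55, -3.12 and -3.23, and the 3 Tiparp probe sets lie above 0 at 8 weeks and below 0 at 16 weeks, where without the narrow-range arrays 2 of the 3 turn in D mice and 1 of the 3 in E mice.

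No member was called between genotypes, nor between 16 and 8 weeks on chow. In DW8 against EW8, in DW16 against EW16 and in DC16 against DC8 0% of all probe sets were called, 0.00222% in DC16 against EC16, and 0% in the comparison of the diet effect at 16 weeks between D and E mice. At an unadjusted p under 0.05, limma found 1859, 6592, 3934, 2824 and 2844 of the 45037 probe sets in these 5 comparisons, and 1, 4, 2, 3 and 0 of the 14 member probe sets other than that of Cyp1a1. In EW16 against EW8, where 1.57% were called, 0 of 15 member probe sets were called. There 5 of the same 14 had an unadjusted limma p under 0.05, beside 13703 of the 45037 probe sets.

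Genes around the receptor were read from 7 lists of 63 genes, of which 53 were measured, each read on 1 probe set. No list gene was called higher in any comparison. In EW16 against EC16 1 was called lower, Kyat1 (-0.86, SE 0.171; limma, adjusted p = 0.00846), a kynurenine aminotransferase of tryptophan breakdown, where 2.66% of all probe sets were called. The count became 0 with the replicate block, with the probe set of widest spread and without EW16 mice 5 to 8, and ran from 0 to 3 with single mice left out. In DW16 against DC16 4 were called lower: the corepressor Nrip1 (-1.17), the NF-kB subunit Relb (-1.56), the retinoic acid hydroxylase Cyp26b1 (-1.45) and the P450 Cyp2d22 (-0.81), where 3.43% of all were called. These 4 calls became 0 without the narrow-range arrays and 1 to 11 with single mice left out. In DW8 against DC8 0 were called. Between 16 and 8 weeks on Western diet Src, a kinase of the cytosolic AHR complex, was called lower in D mice (-0.75) and in E mice (-0.73). In D mice Nrip1 (-1.33), Relb (-1.39), Rela (-1.69), another NF-kB subunit that binds AHR, and Serpinb2 (-1.57), an AHR target and protease inhibitor, were called lower as well. The 5 calls in D mice of 53 genes stand beside 5.41% of all probe sets, and the 1 call in E mice beside 1.57%. Both counts became 0 without the narrow-range arrays, and the one in E mice also with a further quantile normalization, with the replicate block, without EW16 mice 5 to 8 and without any single mouse except EW16 mouse 4, where it was 2.

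None of the 8 measured genes in the list of 11 other AHR targets was called in the 3 diet comparisons on its leading probe set. Cyp1a2 (mean level 4.74), Nqo1 (5.09), Aldh3a1 (3.38) and Gsta2 (3.65) lay below the median level of all probe sets, 5.58. A fall could hardly show at such levels, and the rest of the 8 lay above that median. The 8 had medians of -0.06 in EW16 less EC16, -0.17 in DW16 less DC16 and -0.004 in DW8 less DC8, beside 0.06, 0.04 and -0.02 over all probe sets. Cyp1a2, the third CYP1 enzyme, differed by -0.04 (SE 0.138), 0.13 (SE 0.0987) and -0.004 (SE 0.0912). Nqo1, a quinone reductase, differed by 0.24 (SE 0.143), -0.09 (SE 0.154) and -0.13 (SE 0.0832). Nfe2l2, the NRF2 factor, differed by -0.35 (SE 0.301), -1.04 (SE 0.284) and -0.02 (SE 0.0913).

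The remaining lists had these medians in EW16 less EC16 and DW16 less DC16. They were -0.47 and -0.45 for the 2 measured genes of the cytosolic AHR complex, 0.11 and 0.08 for 10 ARNT family members and partners, and -0.31 and -0.61 for 4 electron donors of P450 enzymes. The 9 coregulators had 0.08 and -0.16, the 9 genes from tryptophan to kynurenine 0.04 and 0.12, and 11 other microsomal P450 enzymes -0.34 and -0.37. Electron donors were all 4 below 0 in both, with 0 called. These 4 lay at percentiles 96.2 to 99.6 of all probe sets by mean level, and Hsp90aa1 of the cytosolic complex lay at 99.4. A narrow-range array is marked by lower values at the top of the scale, and all such arrays are of DW16 and EW16 mice. The part of the narrow range in the medians of these lists was not tested.

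The probe sets most like Cyp1a1 were named by Spearman correlation over the 45 mice, which share the arrays and the diet groups. They were those of Btbd9, a BTB-domain protein (1431230_a_at, 0.881), Hmox1, heme oxygenase 1 (0.850), B9d2, a ciliary protein (0.829), Gch1, of tetrahydrobiopterin synthesis (0.828), and Chst8, a sulfotransferase (0.822). Without the 10 narrow-range arrays Btbd9 had 0.852 and Hmox1 0.798 over 35 mice. The 2 other Btbd9 probe sets had -0.06 and -0.32 over the 45 mice, so the likeness rests on 1 of its 3 probe sets. The second Gch1 probe set had -0.31. On 1431230_a_at Btbd9 was 8.00 ± 0.13 in EC16 and 6.62 ± 0.54 in EW16.

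After each mouse was set against its group's mean, the most alike over 45 mice were Mthfd2, of mitochondrial folate metabolism (0.731), Mnt, a repressor that pairs with MAX (0.711), Btbd9 (0.695), Fam120b (0.687) and Ddx21, an RNA helicase (0.668), and the most opposed were Aspdh (-0.62), Zfp449 (-0.62) and Rarres1 (-0.61). The other probe set of Mnt had -0.15, and the other 2 of Fam120b had 0.08 and -0.37. Within groups the other members had low values with Cyp1a1: Cyp1b1 had 0.18, Ahr -0.14, Arnt 0.10, Ahrr -0.20 and Tiparp 0.04. Among themselves, Cyp1b1 and Ahr had 0.561, Arnt and Tiparp 0.546, and Ahr and Arnt 0.467. These pairs include the narrow-range arrays, on which Arnt and Tiparp both lay lower. Without those arrays the DW16 mean rose from 8.55 to 8.87 for Arnt and from 12.39 to 12.82 for Tiparp. The EW16 mean rose from 8.89 to 9.10 and from 13.06 to 13.45. The part of the narrow range in these correlations was not tested.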

How the data were processed

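The study measured adipocyte RNA of 45 female mice on Affymetrix MG430-2.0 arrays, 1 per mouse. The authors normalized these with RMA express, of a version not stated, and deposited log2 levels per probe set. Whether all arrays were normalized together is not stated, and their ranges differ, which can move differences between groups. All columns were used.

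Groups were taken from the labels, and replicates are separate mice. Each pair of groups, and the diet effect at 16 weeks in D less that in E, was fitted by lmFit and eBayes (limma 3.58.1, R 4.3.3) without a filter on level. A probe set was called at a Benjamini-Hochberg adjusted p under 0.01 over all 45037 probe sets. SAM, which the study applied beside limma, was left out. Probe sets were named from the array annotation (34945 had 1 symbol), and the probe set of highest mean leads for each gene. List genes were named where called, at most 4 a list. Members and lists were chosen with earlier results of these data known. No member has a p in DW8 against DC8 and DW16 against DC16, which chose Cyp1a1, nor has Cyp1a1 where those mice recur.

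Alternatives were 1 spread over the 7 groups, a further quantile normalization, centring on the median, a filter on level, trended and robust moderation, array weights, a threshold of 0.05, a replicate block, narrow-range arrays or single mice left out, and the probe set of widest spread per gene. The paired mice without the block and EW16 mice 5 to 8 left out were added after seeing the data. The fit was tested on simulated data with independent noise of equal spread on all arrays. These data hold no narrow-range arrays, so the check does not bear on their effect on the calls. The number of mice limits the precision. Python 3.11.15, NumPy 2.4.6, SciPy 1.17.1 and Matplotlib 3.10.9 were also used.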

Additional observations from a re-analysis of the deposited data

Results flagged for a closer look

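Of 105 group and probe set pairs examined with 4 to 10 mice each, 9 held a mouse farther from the rest than Dixon's 95% critical value allows, and chance alone sets apart about 5% of such groups. On Cyp1b1 probe set 1416612_at these were DW8 mouse 2 at 8.03 (next mouse 8.37), EW8 mouse 6 at 9.40 (next 8.59) and EC16 mouse 5 at 9.29 (next 8.50). On Cyp1b1 1416613_at it was DW16 mouse 3 at 5.87 (next 5.37). On Arnt 1419996_s_at DC8 mouse 3 stood at 8.03 (next 7.80), and the same mouse stood at 6.60 on Arnt 1449696_at (next 6.33). DC16 mouse 4 stood at 7.80 on Arnt 1449696_at, above the next of 6.40. On Arnt 1421721_a_at DW16 mouse 9 stood at 5.99 (next 5.48) and EW16 mouse 3 at 5.05 (next 5.32). No value of Cyp1a1, Tiparp, Ahr or Ahrr was set apart in this way. The causes were not tested.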

How the results depend on the processing

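Cyp1a1 in EW16 against EC16 was called in the main fit and under all alternatives except 3. These were the replicate block (-2.81, adjusted p = 0.0743, 5 pairs), the same paired mice without the block (-2.81, adjusted p = 0.0215) and EW16 mice 5 to 8 left out (-2.70, adjusted p = 0.0158), which also hold fewer mice. Whether the replicate numbers pair the mice is not known, and so few correlations cannot decide it. Those of same-numbered mice ran from -0.16 to 0.22 in this comparison, and 3 of 5 EW16 mice were closest to their own number. They reached 0.53 in DW16 against EW16, and in no comparison were all above 0.1. No value reversed.

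Counts of called member probe sets changed as follows from 1 in EW16 against EC16: 2 with array weights, 2 at 0.05, 0 with the replicate block, 0 in the paired mice without it, 0 without EW16 mice 5 to 8, and 1 to 2 with single mice left out. In DW16 against DC16 1 became 2 with 1 spread over all groups, 6 with array weights, 3 at 0.05, 4 with the block, 4 in the paired mice without it, 0 without narrow-range arrays, and 0 to 3 with single mice left out (0 without DW16 mouse 6 or DC16 mouse 1, 2, 3 or 5, and 3 without DW16 mouse 8). In DW8 against DC8 2 became 0 with 1 spread, 4 at 0.05 and 0 with the block or its paired mice. In DW16 against DW8 3 became 6 with array weights, 5 at 0.05, 5 in the paired mice without the block, 0 without narrow-range arrays, and 0 to 5 with single mice left out. In other comparisons 0 became, with array weights, 5 in DW16 against EW16, 3 in EW16 against EW8 (0 to 1 with single mice left out) and 2 in the difference of diet effects. The causes were not tested.

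Counts of called list genes changed in the same way. In EW16 against EC16 1 became 0 with the probe set of widest spread, 6 with 1 spread, 2 with centring, 11 with array weights, 5 at 0.05, 0 with the block or its paired mice, 5 without narrow-range arrays, 0 without EW16 mice 5 to 8, and 0 to 3 with single mice left out. In DW16 against DC16 4 became 7, 10, 7, 18 and 13 under the first 5 of these, 8 with the filter on level, 8 with trended moderation, 15 with the block or its paired mice, 0 without narrow-range arrays, and 1 to 11 with single mice left out. In DW8 against DC8 0 became 3 with the widest spread, 1 with the filter, 4 with array weights, 5 at 0.05, and 0 to 2 with single mice left out. In DW16 against DW8 5 became 9 with 1 spread, 8 with centring, 8 with the filter, 20 with array weights, 15 at 0.05, 12 with the block, 16 in its paired mice, 0 without narrow-range arrays, and 1 to 10 with single mice left out. In EW16 against EW8 1 became 2 with the widest spread, 3 with 1 spread, 0 with quantile normalization, 5 with array weights, 3 at 0.05, 0 with the block or its paired mice, 0 without narrow-range arrays or EW16 mice 5 to 8, and 0 to 2 with single mice left out. With array weights 0 became 12 in DW16 against EW16 and 5 in the difference of diet effects. Among single values of members and correlations with Cyp1a1, 15 moved, 6 passed the threshold newly and 39 lost it. The other 1461 were counted as the same, by call or by the size of the change. Values not called could change sign within that count. Ahr on 1422631_at in DW16 less DC16 ran from -0.01 to 0.17 with single mice left out.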
